A study of Mus musculus with 16 samples.

Results

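The genes described here make or organise the connective tissue of the kidney. They encode interstitial and basement membrane collagens, laminins, nidogens and perlecan, elastic fibre proteins, small proteoglycans and matricellular proteins, matrix enzymes and inhibitors, markers of fibroblasts, pericytes and smooth muscle, and the growth factor TGF-beta. They were taken from the table by gene symbol. Of 45 listed genes, 44 had a row among the 13430 genes of the expression table, and Timp1 is not analysed here. RNA came from a 3 mm slice through the middle of the kidney, with 1 sequencing library per mouse. All 16 mice were C57BL/6 females of 2 to 3 months, fasted for 12 h with their own drink at hand. The 4 groups of 4 mice were IRR(-/-) mice that drank 250 mM NaHCO3 at pH 8.5 for 7 days, IRR(-/-) mice that drank water, wild-type mice that drank the same bicarbonate solution for 7 days, and wild-type mice that drank water. IRR is the insulin receptor-related receptor, encoded by Insrr, a membrane kinase that is activated by alkaline fluid. The labels do not give the part of Insrr that the knockout removes, how the line was made, or whether the mice of both genotypes were littermates. The comparisons ask how the matrix genes of the kidney differed with the receptor and with an alkali load.

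In the kidney, collagen types I and III form the fibrils of the interstitium and of vessel walls, and fibroblasts and pericytes are their main source. Basement membranes lie under every tubule, around capillaries and between podocytes and endothelium. There, laminin trimers and networks of collagen IV form separate sheets that nidogens and perlecan join. The collagen IV chains of Col4a1 and Col4a2 occur in all basement membranes, and those of Col4a3, Col4a4 and Col4a5 make the network of the mature glomerular filter, the site of disease in Alport syndrome. TGF-beta, released from a latent store in the matrix, raises the synthesis of collagen and fibronectin in injured kidneys. RNA of a whole slice mixes all these cells, so fewer cells of a type and less RNA per cell cannot be told apart.

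Values are RPKM, reads per kilobase of transcript scaled to library size, as deposited by the authors. The median gene of a library lay between 8.44 and 8.92 RPKM. The summed RPKM was 2.42e+06 to 2.93e+06 in the 8 knockout libraries and 1.36e+06 to 1.60e+06 in the 8 wild-type libraries, and mitochondrially encoded genes held 82.6% to 84.9% and 69.6% to 74.2% of these sums. The values gave no way back to read depth, so counting error is unknown. Insrr itself averaged 3.58 ± 0.181 RPKM on bicarbonate and 3.62 ± 0.343 RPKM on water in the knockout, against 5.13 ± 0.972 and 5.93 ± 0.824 RPKM in wild type on the same drinks (SD, n = 4 each), with no overlap between genotypes. Knockout water replicate 2 was low across the list, with 8 of 44 genes above their mean over all libraries and a median deviation of -0.35 on the log2 scale. Wild-type bicarbonate replicate 3 stood apart from the others on the second principal component, at -50.8. The labels give no sequencing batch, so a batch that followed genotype or drink cannot be told apart from them. They do say that 16 animals were used, so the spread within a group is that between mice.

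Levels of the 44 genes differed widely. Timp3, an inhibitor of metalloproteinases that is bound in the matrix, was the most abundant, at a mean of 495 RPKM over the 16 libraries and a range of 461 to 591 RPKM. It lay above 99.3% of all genes. Its relative Timp2 averaged 19.5 RPKM (15.6 to 22.7 RPKM), and Mmp2, the gelatinase that both can inhibit, averaged 1.09 RPKM (0.685 to 1.66 RPKM). The abundant proteoglycans and matricellular proteins were biglycan (Bgn), at a mean of 96.6 RPKM, Sparc at 60.9 RPKM, Ccn2 at 40.9 RPKM and decorin (Dcn) at 38.3 RPKM. Fibronectin (Fn1) averaged 9.19 RPKM, periostin (Postn) 2.84 RPKM and lumican (Lum) 1.16 RPKM.

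Most genes of basement membranes stood above those of the interstitial fibrils. Col4a3 averaged 35.3 RPKM, Col4a4 30.4 RPKM, Col18a1 22.6 RPKM, Col4a1 17.6 RPKM, Col4a2 17.5 RPKM, Col4a5 11.96 RPKM and Col15a1 2.37 RPKM. Among the laminins, Lamb1 averaged 43.2 RPKM, Lama5 33.7 RPKM, Lamb2 31.6 RPKM and Lamc1 15.05 RPKM. These chains form the trimers of tubular and glomerular basement membranes. Perlecan (Hspg2) averaged 10.8 RPKM, Nid1 10.2 RPKM and Nid2 3.41 RPKM. Of the fibrillar collagens, Col1a2 averaged 10.2 RPKM, Col3a1 6.21 RPKM, Col5a2 5.37 RPKM, Col1a1 2.68 RPKM and Col5a1, the lowest of all 44, 0.877 RPKM. The collagen VI chains, which make beaded filaments around cells, averaged 4.93 RPKM for Col6a3, 4.25 RPKM for Col6a1 and 1.98 RPKM for Col6a2. All 5 elastic fibre genes were low, from 1.47 RPKM for elastin (Eln) to 3.92 RPKM for Fbln1.

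Markers of stromal cells were present in every library. The contractile genes of vascular smooth muscle averaged 26.5 RPKM for Acta2, 15.8 RPKM for Tagln and 8.10 RPKM for Myh11. Vimentin (Vim), the intermediate filament of mesenchymal cells, podocytes, endothelium and leukocytes, averaged 23.7 RPKM. The receptors of fibroblasts and pericytes averaged 11.5 RPKM for Pdgfra and 7.30 RPKM for Pdgfrb. Tgfb1, the ligand, averaged 6.24 RPKM. The coefficient of variation within groups ran from 5.96% for Col18a1 to 50.3% for Postn, with 49.5% for Lum, 47.98% for Lamb2, 46.2% for Col15a1 and 40.8% for Col3a1.

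**Figure D1:**
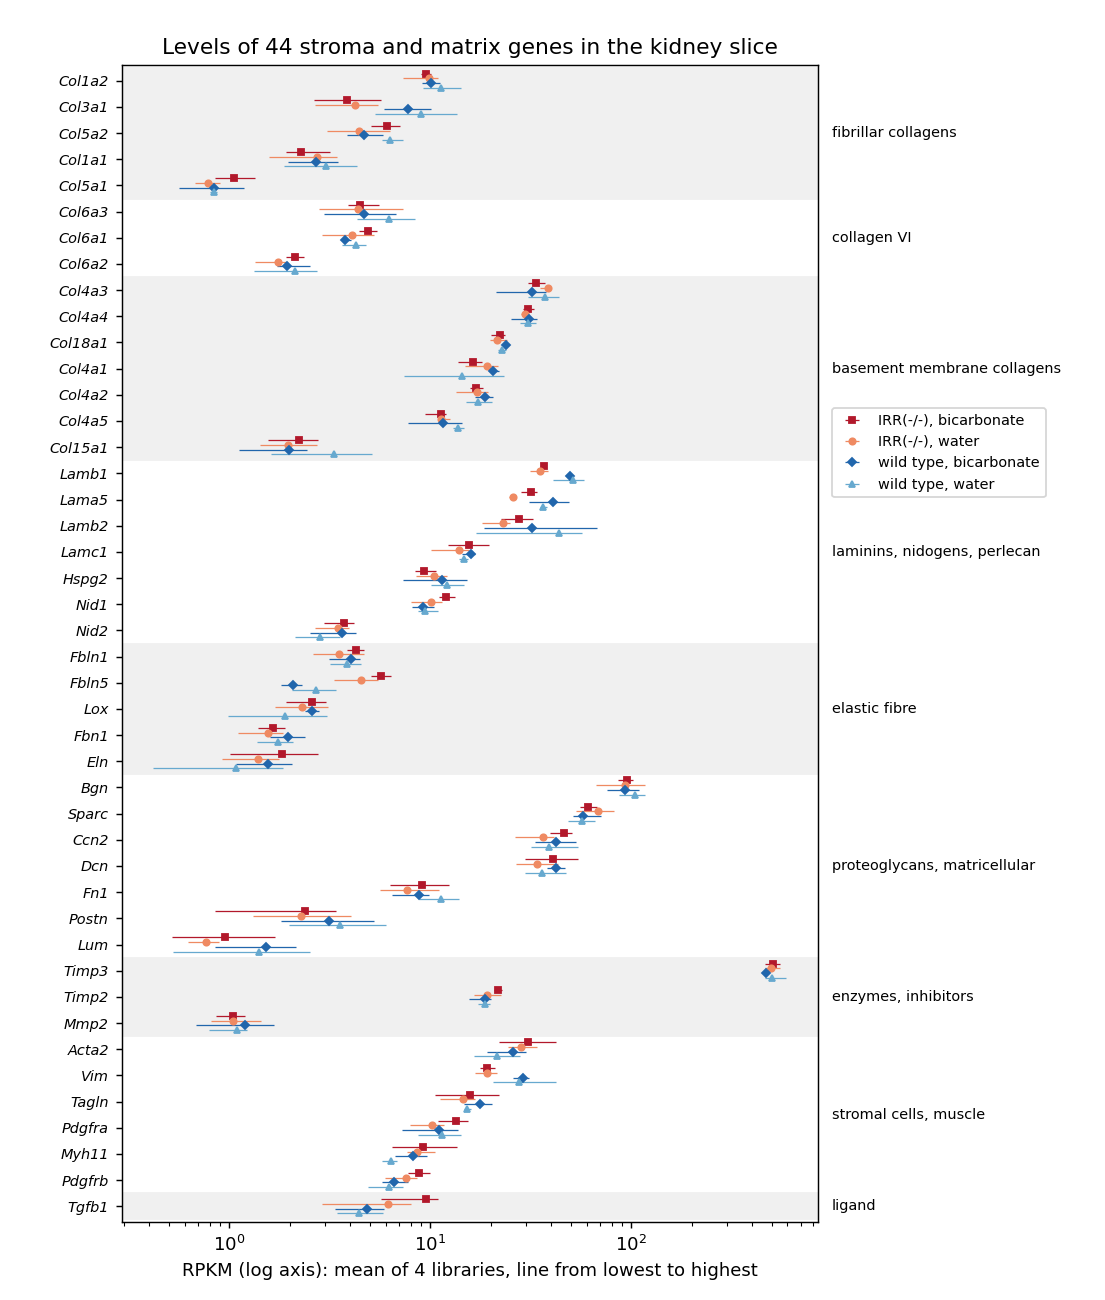
Mean RPKM of each of the 44 genes in the 4 groups on a log axis, with a line from the lowest to the highest of 4 libraries, ordered by role and by level. Timp3 stands alone on the right at 495 RPKM over all libraries.

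Genotype was the comparison in which members passed the test. Differences are knockout minus wild type of log2(RPKM + 0.1), tested with limma over 12943 genes with Benjamini-Hochberg adjustment and a threshold of 0.05, and the added 0.1 understates the change of low genes. All 44 genes were among those tested. On water, 4 of 44 passed, against 21.9% of all genes tested, and 9 had an unadjusted p under 0.05, against 34.3%. Fbln5 was higher in the knockout (10.1% of all genes), and Lamb1, Lama5 and Col3a1 were lower (11.8%). On bicarbonate, 7 of 44 passed, against 18.4% of all genes tested, and 10 had an unadjusted p under 0.05, against 31.4%. Fbln5, Nid1 and Tgfb1 were higher (9.03% of all genes), and Lamb1, Lama5, Col3a1 and Vim were lower (9.36%). That count depended on single libraries. It was 2 without wild-type bicarbonate replicate 1 or 4 or without knockout bicarbonate replicate 2 or 4. It was 4 without wild-type bicarbonate replicate 3. The share of all genes called in these refits is not given here, so whether the change is particular to the members cannot be told. The share of members called was thus below the background on water and near it on bicarbonate. The median log2 difference of the 44 genes was -0.09 on water and 0.02 on bicarbonate, beside -0.05 and -0.02 over all genes tested. With single libraries left out it ran from -0.15 (without knockout water replicate 3) to -0.02 (without knockout water replicate 2) on water. On bicarbonate it ran from -0.09, below 0, without wild-type bicarbonate replicate 3 to 0.05 without wild-type bicarbonate replicate 1. Estimates were positive for 13 of 44 genes on water, against 44.7% of all genes, and for 24 of 44 on bicarbonate, against 48.1%. The 2 genotype comparisons share no mouse, but the fit gives them the same estimate of the spread of each gene, so their calls are not independent. The 4 genes called on water were all called in the same direction on bicarbonate. For comparison, 54.6% of all genes called on water and 64.9% of those called on bicarbonate were called on both drinks.

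Lamb1, the beta chain of the common basement membrane laminins, was lower in the knockout on both drinks. The gene lies at chr12:31265234-31329644 in GRCm38. It measured 36.5, 38.3, 31.4 and 35.1 RPKM in the knockout on water, against 58.3, 55.4, 50.8 and 41.01 RPKM in wild type on water. On bicarbonate it measured 36.7, 35.7, 37.2 and 37.7 RPKM in the knockout, against 49.6, 48.4, 51.4 and 48.3 RPKM in wild type. All 8 knockout libraries lay below all 8 wild-type libraries, the only member for which the genotypes were fully apart, against 9.15% of all genes tested in either direction and 4.54% lower in the knockout. Its log2 difference was -0.53 ± 0.09 on water (limma with SE, adjusted p = 0.000835) and -0.42 ± 0.09 on bicarbonate (adjusted p = 0.00513). Both calls held under all 20 alternative settings, which changed the scaling, the added constant, the filter, the variance model or the covariates, or left out libraries of the groups compared.

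Lama5 encodes the alpha chain that pairs with these beta chains in tubular and glomerular membranes, from chr2:180176373-180225859. It measured 24.7, 25.4, 26.3 and 26.6 RPKM in the knockout on water, against 37.3, 38.3, 35.3 and 35.5 RPKM in wild type on water, with no overlap. The values on bicarbonate were 28.3, 33.6, 34.1 and 30.8 RPKM in the knockout, against 48.96, 31.1, 45.1 and 38.1 RPKM in wild type, where the lowest wild-type library lay inside the knockout range. On water Lama5 differed by -0.51 ± 0.11 on the log2 scale (SE, limma adjusted p = 0.00435), a call that held in every setting. On bicarbonate it was -0.35 ± 0.11 (adjusted p = 0.0409), and this call was lost in 11 of 20 settings, among them those without knockout bicarbonate replicate 1, 2 or 4 or wild-type bicarbonate replicate 1, 3 or 4, at -0.38 to -0.25 (adjusted p = 0.0528 to 0.124). The other chains of the same trimers did not pass. The log2 difference of Lamc1 was -0.09 on water and -0.04 on bicarbonate, and that of Lamb2 was -0.80 and 0.02. Nid1 (chr13:13437551-13512269), which links laminin to collagen IV, was higher in the knockout on bicarbonate. It measured 11.7, 12.03, 11.1 and 13.3 RPKM there, against 8.07, 10.4, 9.47 and 8.94 RPKM in wild type, without overlap (log2 difference 0.38 ± 0.12, SE, adjusted p = 0.0335). On water its log2 difference was 0.09 (adjusted p = 0.640), and the interaction was 0.29 (adjusted p = 0.656). The Nid1 call on bicarbonate was lost in 7 of 20 settings, among them removal of trends with transcript length and GC content, at 0.28 (adjusted p = 0.102). It was also lost without knockout bicarbonate replicate 1, 2 or 4 or wild-type bicarbonate replicate 1 or 4, at 0.32 to 0.39 (adjusted p = 0.0506 to 0.1002).

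Fbln5, fibulin-5, an elastogenic protein that tethers lysyl oxidases and elastin to microfibrils and cells, showed the largest positive difference among the members on both drinks. The gene lies at chr12:101746565-101819055. On bicarbonate it measured 5.07, 6.11, 5.24 and 6.37 RPKM in the knockout, against 1.81, 2.29, 1.91 and 2.27 RPKM in wild type. The values on water were 3.91, 3.31, 5.38 and 5.51 RPKM in the knockout, against 2.20, 3.41, 2.05 and 3.10 RPKM in wild type. The groups were apart on bicarbonate, while on water the lowest knockout library lay just under the highest wild-type one. Its log2 difference was 1.42 ± 0.19 on bicarbonate (limma with SE, adjusted p = 0.000131) and 0.73 ± 0.19 on water (adjusted p = 0.0118). The difference between these values, 0.69 ± 0.27, did not pass (adjusted p = 0.551, 95% interval 0.11 to 1.27). The call on bicarbonate held in every setting, and that on water was lost in 1 of 20, when the fit held only the 2 groups compared (adjusted p = 0.0546). The other elastic fibre genes did not pass. Elastin had log2 differences of 0.17 on bicarbonate and 0.48 on water, Lox, which crosslinks it, -0.03 and 0.39, Fbn1, the microfibril protein, -0.22 and -0.16, and Fbln1 0.09 and -0.15.

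Col3a1, the collagen of fine reticular fibrils, had the largest negative difference among the members on both drinks. The gene lies at chr1:45311538-45349706. It measured 5.51, 3.45, 2.67 and 5.32 RPKM in the knockout on water, against 11.8, 13.6, 5.32 and 5.41 RPKM in wild type on water, where replicates 1 and 2 were high and the other two lay within the knockout range. On bicarbonate it measured 5.71, 3.89, 2.63 and 3.11 RPKM in the knockout, against 8.36, 5.91, 6.68 and 10.1 RPKM in wild type, without overlap. Its log2 difference was -1.01 ± 0.34 on water (limma with SE, adjusted p = 0.0447) and -1.03 ± 0.34 on bicarbonate (adjusted p = 0.0459). Each call was lost in 10 of 20 settings. On water it was lost without knockout water replicate 2 or 3 or wild-type water replicate 1 or 2, at -0.93 to -0.77 (adjusted p = 0.101 to 0.139). On bicarbonate it was lost without knockout bicarbonate replicate 2, 3 or 4 or wild-type bicarbonate replicate 1, 2, 3 or 4, at -1.15 to -0.87 (adjusted p = 0.0513 to 0.127). The other fibrillar collagens did not pass. Col1a2, the most abundant of them, had log2 differences of -0.19 on water and -0.10 on bicarbonate, and Col1a1 had -0.14 and -0.24. On water the estimates of all 5 fibrillar and all 3 collagen VI genes were below 0, and the smallest adjusted p among those that did not pass was 0.0511, for Col5a2. On bicarbonate the 3 collagen VI genes had positive estimates.

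Vim and Tgfb1 passed on bicarbonate only, and neither difference between drinks was past the threshold. Vim (chr2:13573927-13582826) measured 21.05, 18.5, 19.4 and 17.6 RPKM in the knockout on bicarbonate, against 28.7, 25.8, 29.8 and 31.03 RPKM in wild type, without overlap. On water it measured 18.2, 16.7, 21.5 and 20.4 RPKM in the knockout and 42.1, 20.6, 22.6 and 24.9 RPKM in wild type, where replicate 1 was far above the others. For Vim the fitted log2 difference was -0.59 ± 0.17 on bicarbonate (SE, adjusted p = 0.0242) and -0.46 ± 0.17 on water (adjusted p = 0.0625). The call was lost in 6 of 20 settings, among them those without knockout bicarbonate replicate 2 or 4 or wild-type bicarbonate replicate 1 or 4, at -0.59 to -0.55 (adjusted p = 0.0508 to 0.0674). Tgfb1 (chr7:25687002-25705077) measured 5.66, 10.8, 10.98 and 10.8 RPKM in the knockout on bicarbonate, against 4.44, 5.68, 3.337 and 5.92 RPKM in wild type, so that knockout replicate 1 was within the wild-type range and the other three were about alike and higher. On water it measured 8.04, 7.51, 2.90 and 6.11 RPKM in the knockout and 5.85, 4.88, 3.44 and 3.42 RPKM in wild type, and these overlapped. For Tgfb1 it was 0.95 ± 0.31 on bicarbonate (SE, adjusted p = 0.0466) and 0.41 ± 0.31 on water (adjusted p = 0.387). The call was lost in 10 of 20 settings, among them those without knockout bicarbonate replicate 2, 3 or 4 or wild-type bicarbonate replicate 1, 2, 3 or 4, at 0.79 to 1.06 (adjusted p = 0.0508 to 0.118). The interaction was -0.13 for Vim (adjusted p = 0.912) and 0.54 for Tgfb1 (adjusted p = 0.764).

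**Figure D2:**
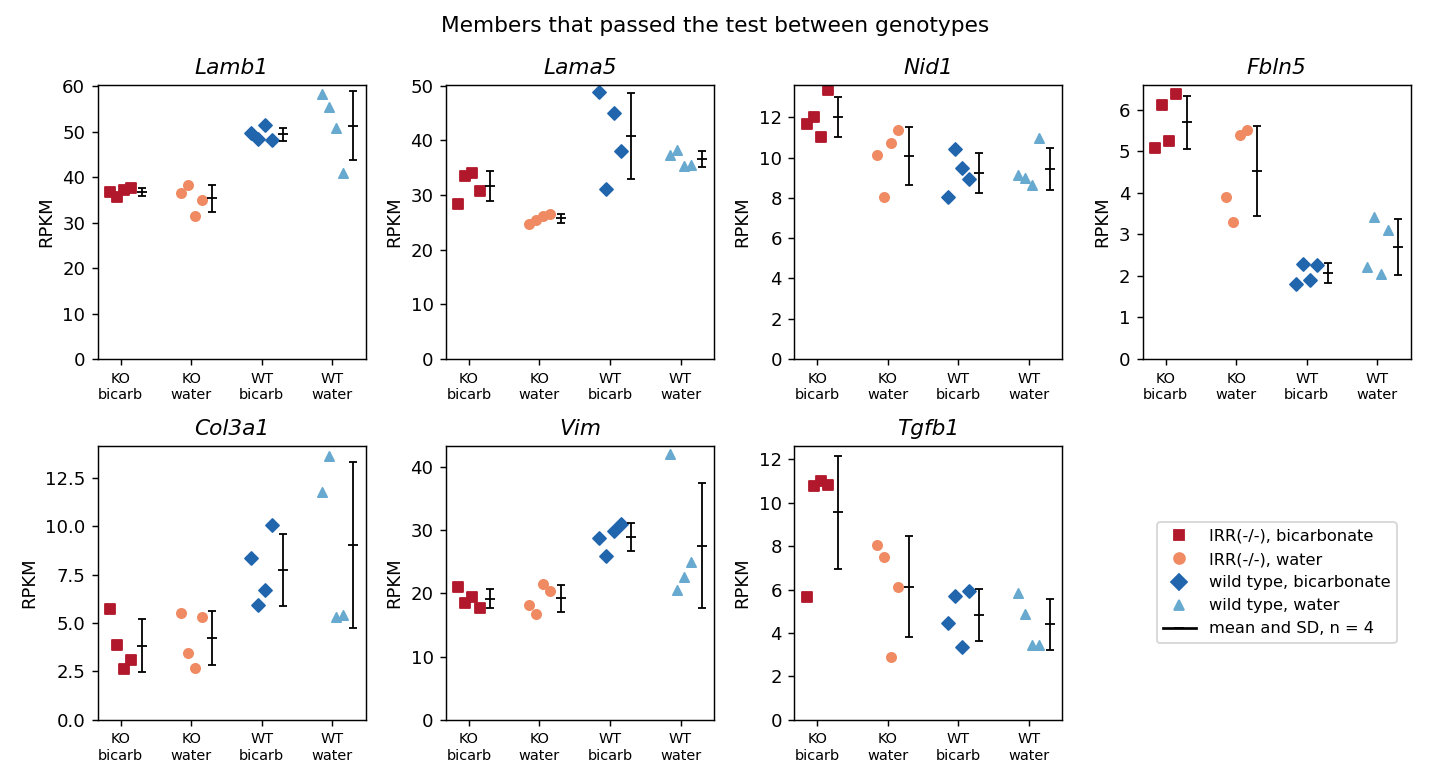
RPKM of the 7 genes that passed the test between genotypes on at least 1 drink, for each of the 16 libraries, with the mean and SD of each group (n = 4) as black bars. Lamb1 lies between 31.4 and 38.3 RPKM in all knockout libraries and between 41.01 and 58.3 RPKM in all wild-type libraries. The genotypes overlap on water for Nid1, Fbln5, Col3a1, Vim and Tgfb1.

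Fbln5, Lamb1, Lama5 and Col3a1 differed between genotypes on both drinks, and the sequence before their transcription start is shown so that the letters at the start of the gene that was higher can be set beside those of the 3 that were lower. Windows come from RefSeq in GRCm38.p6, end before the first annotated base of the gene, and were available for 30 of the 45 genes. They cover chr12:101819120-101819369 (minus strand) for Fbln5, chr12:31265043-31265233 (plus strand) for Lamb1, chr2:180225860-180226109 (minus strand) for Lama5 and chr1:45311288-45311537 (plus strand) for Col3a1. Capitals mark matches to the letters of the TATA box (TATAAA), of the CCAAT box, or of the GC box searched here as GGGCGG, each on either strand.
Fbln5: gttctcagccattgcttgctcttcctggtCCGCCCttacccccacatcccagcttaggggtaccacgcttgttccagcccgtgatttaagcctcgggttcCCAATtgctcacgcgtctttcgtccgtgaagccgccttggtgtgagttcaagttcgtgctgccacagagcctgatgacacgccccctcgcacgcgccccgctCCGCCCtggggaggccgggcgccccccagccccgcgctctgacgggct
Lamb1: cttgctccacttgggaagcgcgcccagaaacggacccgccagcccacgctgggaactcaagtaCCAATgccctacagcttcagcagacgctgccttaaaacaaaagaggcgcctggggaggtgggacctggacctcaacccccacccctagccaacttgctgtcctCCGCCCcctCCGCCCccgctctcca
Lama5: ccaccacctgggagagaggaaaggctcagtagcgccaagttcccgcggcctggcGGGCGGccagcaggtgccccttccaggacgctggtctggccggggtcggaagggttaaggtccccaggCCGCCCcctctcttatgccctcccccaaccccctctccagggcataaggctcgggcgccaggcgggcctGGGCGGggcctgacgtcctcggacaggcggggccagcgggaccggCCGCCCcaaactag
Col3a1: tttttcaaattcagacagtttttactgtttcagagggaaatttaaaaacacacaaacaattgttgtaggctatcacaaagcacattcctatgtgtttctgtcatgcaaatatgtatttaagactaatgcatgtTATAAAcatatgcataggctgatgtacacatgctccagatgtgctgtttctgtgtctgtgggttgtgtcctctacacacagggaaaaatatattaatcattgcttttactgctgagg
The windows of Fbln5 and Lamb1 each held 1 CCAAT and 2 GGGCGG matches, and the window of Lama5 held 4 GGGCGG matches. That of Col3a1 held a single match, to TATAAA. No 2 matches overlapped. Over all 32851 windows of 250 bases, 32.74% held GGGCGG, 33.85% CCAAT and 12.37% TATAAA. In windows cut to the 191 bases of Lamb1 the shares were 23.06%, 26.92% and 8.78%. The GC content was 65.2% for Fbln5, 63.87% for Lamb1 and 72.4% for Lama5, above the median of all windows, 52.4% at 250 bases and 51.31% at 191 bases. It was 35.2% for Col3a1, which is below it. Fbln5, which was higher in the knockout, and Lamb1, which was lower, carried the same count of each motif. A match is a match of letters only, and binding was not measured.

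Basement membrane collagens, collagen VI, proteoglycans and matricellular proteins, and matrix enzymes with their inhibitors held no gene past the threshold between genotypes on either drink. None of the 7 collagens of basement membranes passed, and Col4a3 and Col4a4, the most abundant, had log2 differences of 0.06 and -0.04 on water and 0.09 and -0.02 on bicarbonate. Col4a4 measured 30.4, 28.4, 28.8 and 30.7 RPKM in the knockout on water, against 30.4, 27.99, 33.8 and 30.02 RPKM in wild type, which are close and overlapping values. Its 95% interval, -0.23 to 0.15, is among the narrowest of the list. Col18a1, the source of endostatin, had intervals of like width, at -0.08 on water (95% interval -0.24 to 0.07) and -0.10 on bicarbonate (-0.26 to 0.05).

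Among proteoglycans and matricellular proteins, 0 of 7 passed on either drink with limma. Biglycan had log2 differences of -0.19 on water and 0.04 on bicarbonate, Sparc 0.26 and 0.09, Ccn2 -0.08 and 0.15, and decorin -0.07 and -0.07. Fibronectin had the smallest adjusted p of this group on water (0.0989), at a log2 difference of -0.58 ± 0.24 (SE). Neither of the inhibitors passed: Timp3 had -0.01 on water and 0.12 on bicarbonate, and Timp2 0.02 and 0.22.

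Of the other stromal and muscle genes, Pdgfrb and Myh11 are given because their groups did not overlap on 1 drink, a choice made after their values were seen. Pdgfrb measured 7.76, 8.46, 9.02 and 9.95 RPKM in the knockout on bicarbonate, against 6.98, 7.71, 5.74 and 6.06 RPKM in wild type, without overlap, and its adjusted p was 0.0625 at a log2 difference of 0.41 ± 0.14 (SE, limma). On water it had 0.28 (adjusted p = 0.189). Myh11, smooth muscle myosin, measured 10.6, 7.62, 7.78 and 8.58 RPKM in the knockout on water, against 6.43, 6.33, 6.85 and 5.75 RPKM in wild type, also without overlap, at a log2 difference of 0.43 ± 0.20 (SE, adjusted p = 0.134). Acta2 had 0.41 on water and 0.23 on bicarbonate, and Tagln had -0.07 and -0.21. In all, the groups did not overlap for 1 member higher and 3 lower on water, beside 23.8% of all genes tested, 10.8% higher and 13% lower. On bicarbonate they did not overlap for 5 higher and 4 lower, beside 22.8%, with 11% higher and 11.8% lower. Those that did not overlap and also did not pass were Myh11 and Col4a5 on water, and Col6a1, Timp2, Pdgfrb and Col4a1 on bicarbonate.

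**Figure D3:**
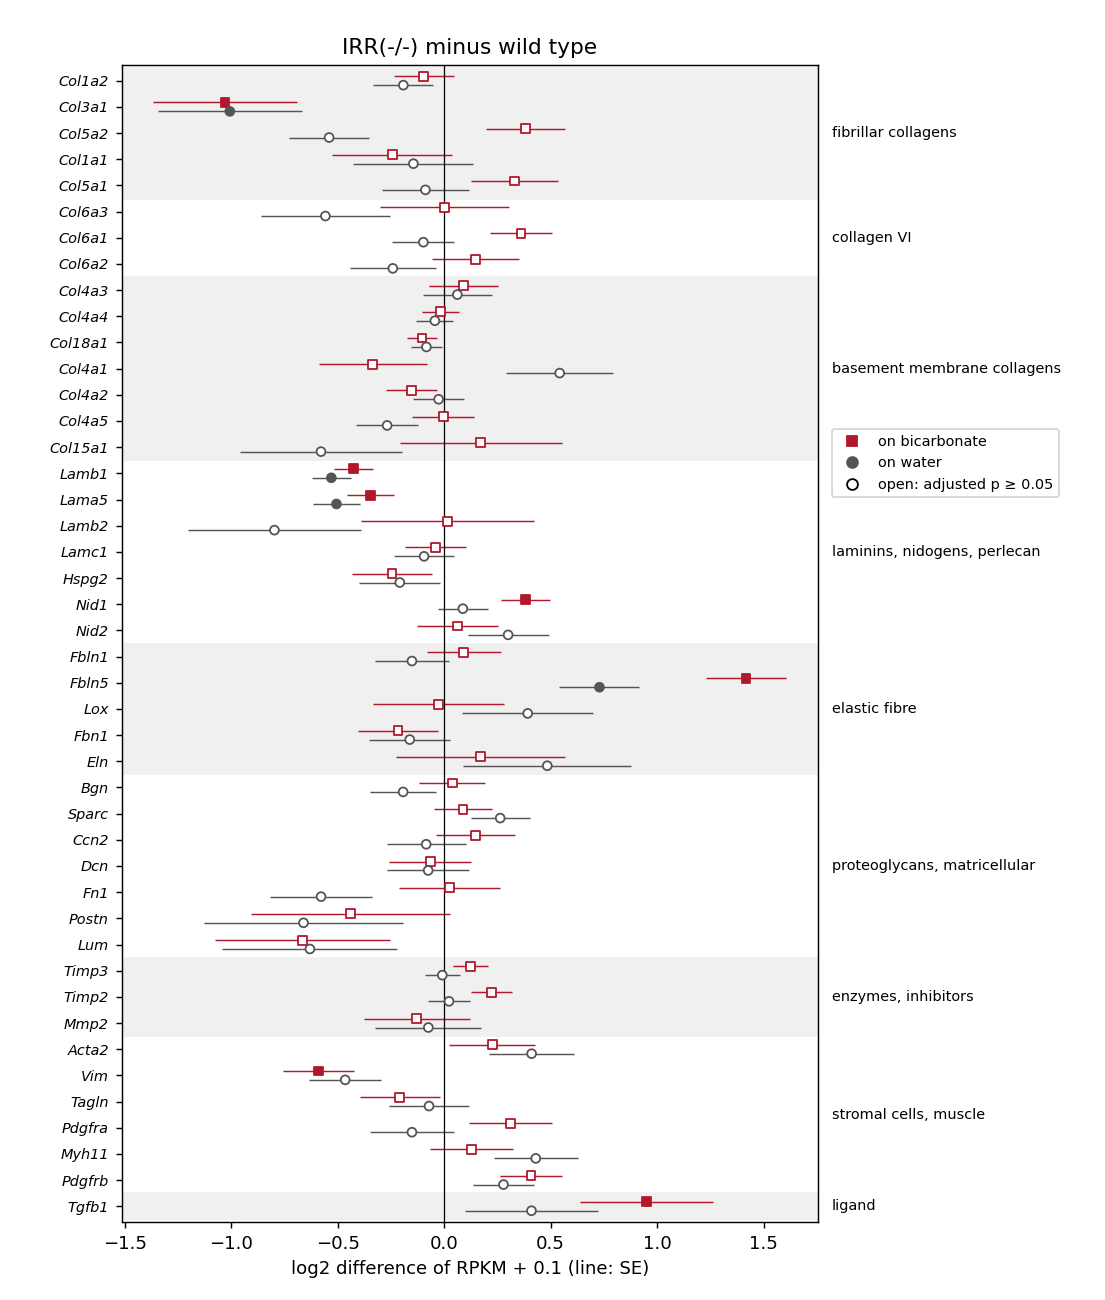
Log2 difference of RPKM + 0.1 between knockout and wild type for the 44 genes, with the SE as a line, on bicarbonate (red squares) and on water (grey circles); filled symbols have an adjusted p under 0.05. Filled symbols are few, at Lamb1, Lama5, Fbln5 and Col3a1 on both drinks and at Nid1, Vim and Tgfb1 on bicarbonate.

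Markers of other cell types were read in the same libraries. The summed RPKM of 8 podocyte markers was 131 to 144 in the knockout on bicarbonate, 121 to 139 in the knockout on water, 127 to 136 in wild type on bicarbonate and 131 to 138 in wild type on water. That of 11 endothelial markers was 353 to 389, 331 to 367, 324 to 384 and 339 to 372 in the same order, and these sums overlapped between all groups. On bicarbonate 2 of 8 podocyte markers passed between genotypes (25%, beside 18.4% of all genes tested), 1 higher and 1 lower in the knockout. None passed on water, and no endothelial marker passed on either drink. For 9 of 11 leukocyte markers with a row the sums, in the same order of groups, were 133 to 146, 140.2 to 165, 112 to 141 and 95.9 to 138. On water they were higher in the knockout, without overlap. Cd74, an MHC class II chaperone, held 51.8% to 70.3% of that sum over the libraries. The other 8 summed to 43.4 to 51.0 in the knockout on water, against 46.2 to 61.3 in wild type on water, which overlapped. On water 4 of the 9 estimates were positive and 5 negative, and 1 marker passed, Cd74 (log2 difference 0.59, limma adjusted p = 0.00371). Haemoglobin and red cell genes, 5 of 5, had sums of 234 to 612 in the knockout on bicarbonate, against 811 to 1549.9 in wild type on bicarbonate, without overlap, and of 373 to 2068 and 501 to 1572 on water. Of the 5, 2 passed (40%), both lower in the knockout on bicarbonate, beside 9.36% of all genes tested that passed as lower there. The part of these cells in the calls was not tested.

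Tubule markers differed gene by gene. The 5 markers of the thick limb and distal tubule summed to 1325 to 1397 RPKM in the knockout on water, against 1587 to 1845 RPKM in wild type on water, without overlap. On bicarbonate the sums were 1394 to 1631 RPKM in the knockout and 1584 to 1817 RPKM in wild type, which overlapped. Umod, uromodulin of the thick limb, was lower in the knockout on water (log2 difference -0.54, limma adjusted p = 0.00182) and on bicarbonate (-0.41, adjusted p = 0.0122). Pvalb of the distal convoluted tubule was higher on both (0.59, limma adjusted p = 0.00841, and 0.44, adjusted p = 0.0454), and the rest did not pass. Of the 5 markers 40% thus passed on each drink, beside 21.9% of all genes tested on water and 18.4% on bicarbonate. Without Umod, sums on water were 724 to 853 RPKM in the knockout and 792 to 913 RPKM in wild type, and they overlapped. These differences stand in the same comparisons as those of Lamb1 and Lama5, and their part in them was not tested. All 10 proximal tubule markers had a row. Kap, an androgen-regulated tubule gene, ranged from 742 to 21497 RPKM between libraries and held 14.6% to 81.1% of the summed level. The other 9 summed to 4574 to 4851 RPKM in the knockout on bicarbonate, 4574 to 5241 RPKM in the knockout on water, 4117 to 4787 RPKM in wild type on bicarbonate and 4676 to 5301 RPKM in wild type on water, and overlapped between genotypes on each drink. Slc22a6 and Slc22a8, organic anion transporters, passed as higher in the knockout on water, and Slc34a1 and Slc5a2, carriers of phosphate and glucose, as lower. On bicarbonate Slc22a8 passed as higher and Slc5a2 as lower. Of the 10 proximal tubule markers 40% passed on water and 20% on bicarbonate, beside the same 21.9% and 18.4% of all genes. Sums of markers of the collecting duct, urothelium, mesangium and tubule injury also overlapped between genotypes on each drink. Spp1 made up most of the injury sum, at a mean of 1518 of 1533 RPKM in the knockout on water. On water 1 of 5 injury markers passed as higher in the knockout, and 1 of 7 collecting duct markers as lower. Of all genes tested, 10.1% passed as higher there and 11.8% as lower. On bicarbonate no marker of these lists passed. Fat beside the renal pelvis is a further source of stroma. The 3 of 5 adipocyte markers with a row, Adipoq, Cidec and Cfd, summed to 1.55 to 200.5 in the knockout on bicarbonate, 12.00 to 88.4 in the knockout on water, 12.6 to 113 in wild type on bicarbonate and 15.7 to 159.8 in wild type on water, with Cfd listed at 0 in at least 1 library. With this sum as a covariate, a setting chosen after seeing the data, 2 members passed on bicarbonate, Fbln5 and Lamb1, beside 14.8% of all genes tested. On water 6 passed, 3 of them among the 4 given above, beside 22% of all genes tested. Vim then had a log2 difference of -0.41 (adjusted p = 0.0811) and Tgfb1 of 0.65 (adjusted p = 0.157) on bicarbonate.

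Bicarbonate drinking changed no member past the threshold in either genotype. In the knockout 0 of 44 passed in limma, against 0.0232% of all genes tested (3 genes), and 4 of 44 had an unadjusted p under 0.05, beside 7.99% of all genes. In wild type 0 of 44 passed, against 0.139% (18 genes), and 2 had an unadjusted p under 0.05, beside 12% of all genes. The drinks did not overlap for 0 of 44 genes in wild type, beside 5.86% of all genes tested. No alternative setting gave a call in either genotype. The median log2 difference of the 44 genes was 0.11 in the knockout and 0.01 in wild type, beside 0.01 and -0.01 over all genes tested. In the knockout 34 of 44 estimates were positive, against 53.2% of all genes tested, and in wild type 22 of 44, against 48.6%. Without knockout water replicate 2, the library that was low across the list, the median in the knockout was 0.08. These comparisons share libraries with those of genotype, so their values are not independent of them.

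In the knockout the smallest p-values were those of Lama5, Col5a2 and Nid1. Lama5 measured 28.3, 33.6, 34.1 and 30.8 RPKM on bicarbonate, against 24.7, 25.4, 26.3 and 26.6 RPKM on water, and every bicarbonate library lay above every water library, the only such member, beside 5.66% of all genes tested apart in either direction and 2.72% higher. Lama5 had a log2 difference of 0.30 ± 0.11 (SE, limma adjusted p = 0.509). Col5a2, a chain of the collagen that seeds fibrils, had 0.50 ± 0.19 (adjusted p = 0.511), with 5.97, 5.05, 6.33 and 7.09 RPKM on bicarbonate and 4.41, 3.86, 6.31 and 3.07 RPKM on water, which overlapped. Nid1 had 0.26 ± 0.12 (adjusted p = 0.607), with 11.1 to 13.3 RPKM on bicarbonate and 8.03 to 11.4 RPKM on water, which overlapped at 1 library each. Without knockout water replicate 2 it was 0.16 (adjusted p = 0.770). The largest positive estimate was that of Tgfb1, at 0.68 ± 0.31 (adjusted p = 0.614).

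In wild type the smallest p-values were those of Col4a1, Col5a2 and Lox. Col4a1 measured 21.98, 20.1, 19.95 and 20.03 RPKM on bicarbonate, against 10.5, 7.38, 16.2 and 23.2 RPKM on water, where replicates 1 and 2 were low. Col4a1 had a log2 difference of 0.65 ± 0.25 (SE, limma adjusted p = 0.315). Lox measured 2.47, 2.79, 2.38 and 2.70 RPKM on bicarbonate, against 1.05, 0.984, 2.46 and 3.06 RPKM on water, with the same 2 water libraries low, at 0.59 ± 0.31 (adjusted p = 0.473). Without wild-type water replicate 2, Col4a1 had 0.37 and Lox 0.35, and without replicate 1 Lox had 0.38. Col5a2 had -0.42 ± 0.19 (adjusted p = 0.384), with 4.39, 4.67, 3.86 and 5.82 RPKM on bicarbonate and 7.35, 5.72, 5.77 and 6.29 RPKM on water, which overlapped in a narrow span. The 95% intervals of some abundant genes were narrow: -0.24 to 0.16 for Lamb1, -0.09 to 0.22 for Col18a1, -0.17 to 0.21 for Col4a4 and -0.28 to 0.08 for Timp3. Those of other abundant genes were wider and limit a change less. They were -0.50 to 0.17 for Bgn, -0.27 to 0.53 for Ccn2, -0.17 to 0.67 for Dcn and -1.43 to 0.35 for Lamb2.

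**Figure D4:**
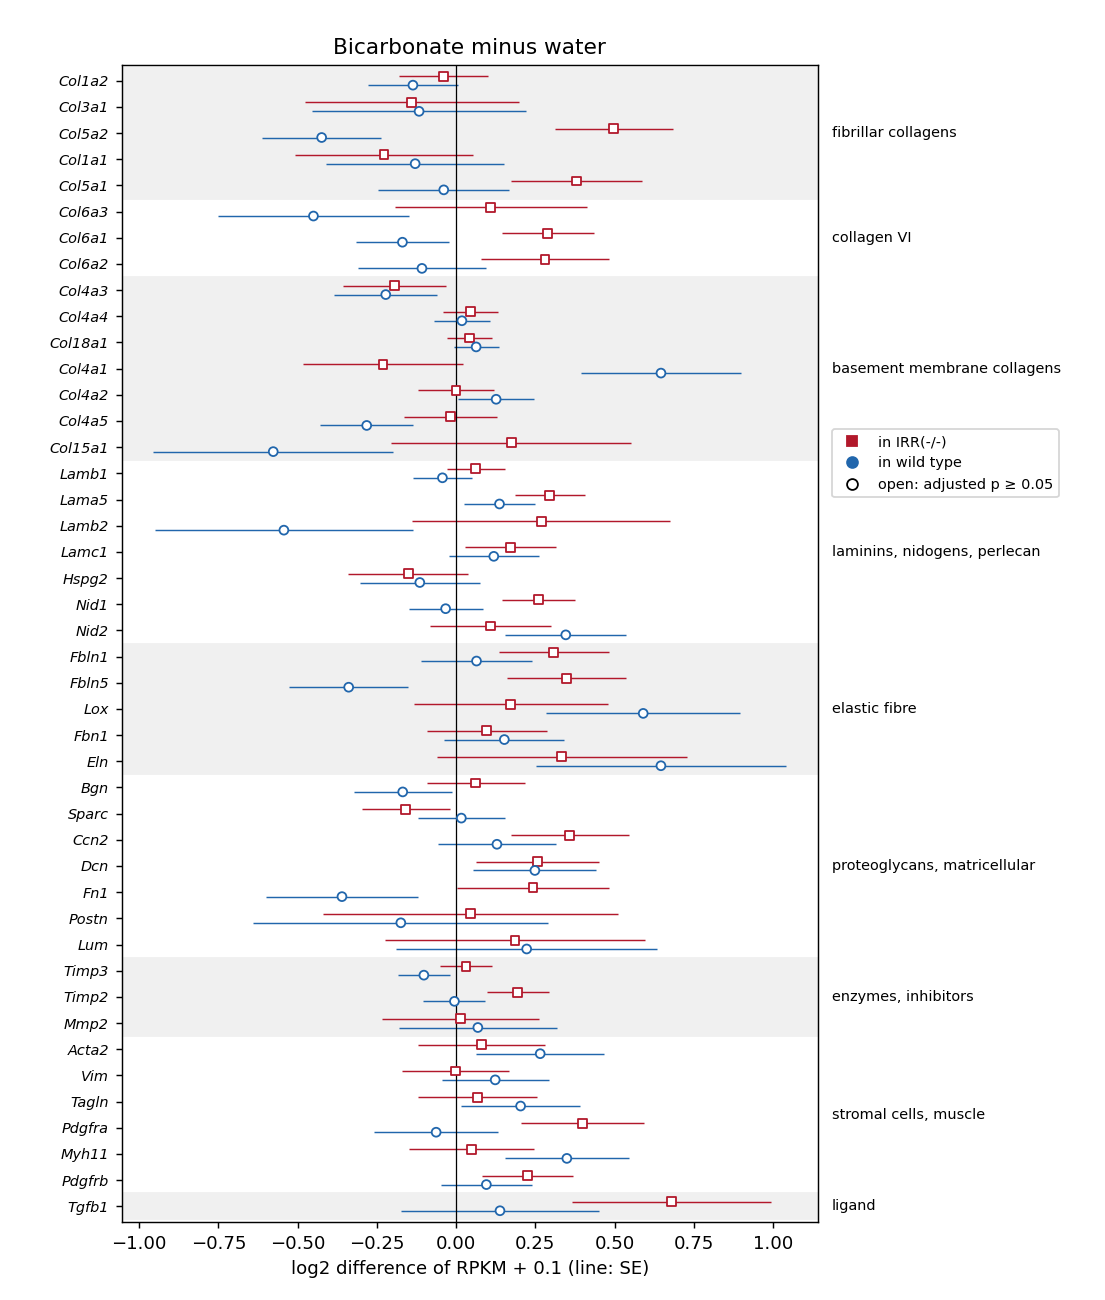
Log2 difference of RPKM + 0.1 between bicarbonate and water for the 44 genes, with the SE as a line, in the knockout (red squares) and in wild type (blue circles); an open symbol has an adjusted p of 0.05 or more. All symbols are open, and Col5a2 (0.50 in the knockout and -0.42 in wild type) and Col4a1 (-0.23 and 0.65) lie on opposite sides of 0 in the 2 genotypes.

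The difference between the genotypes in their response to bicarbonate was tested as an interaction. With limma 0 of 44 passed, against 0.0155% of all genes tested, and 4 had an unadjusted p under 0.05, beside 8.19% of all genes. Estimates were positive for 27 of 44, against 53.4% of all genes. Col5a2 had the smallest p, at 0.92 ± 0.26 (SE, adjusted p = 0.462), followed by Fbln5 at 0.69 ± 0.27 (adjusted p = 0.551) and Col4a1 at -0.88 ± 0.36 (adjusted p = 0.566). All 3 collagen VI genes had positive estimates, from 0.39 for Col6a2 to 0.56 for Col6a3. The response averaged over both genotypes gave 0 of 44 with limma, against 0.44% of all genes tested, and 1 with an unadjusted p under 0.05, beside 11.3%. Estimates were positive for 30 of 44, against 52% of all genes. The smallest p-values were those of Lama5, at 0.22 ± 0.08 (SE, adjusted p = 0.281), Ccn2, a growth factor-like target of TGF-beta, at 0.24 ± 0.13 (adjusted p = 0.513) and Tgfb1 at 0.41 ± 0.22 (adjusted p = 0.516). Ccn2 measured 50.7, 47.9, 39.2 and 46.7 RPKM in the knockout on bicarbonate, against 36.96, 26.3, 40.8 and 41.3 RPKM on water, and in wild type 38.9, 52.9, 43.1 and 33.4 RPKM with bicarbonate, against 31.6, 32.6, 36.97 and 54.3 RPKM with water. The drinks overlapped in both genotypes. Without knockout water replicate 3 the value of Tgfb1 was 0.25 (adjusted p = 0.694).

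Some members varied widely between mice of a group, and Lamb2 and the genes after it were picked out after their values were seen. Lamb2, the beta chain of the mature glomerular laminin, measured 29.2, 22.5, 26.6 and 32.6 RPKM in the knockout on bicarbonate and 25.00, 24.4, 18.1 and 24.3 RPKM in the knockout on water. It measured 18.5, 67.3, 18.96 and 23.00 RPKM in wild type on bicarbonate and 16.95, 57.2, 51.5 and 49.3 RPKM in wild type on water. Thus 4 libraries, all wild type, lay at 49.3 RPKM or above, and the other 12 at 32.6 RPKM or below, with nothing between. The high ones were replicate 2 on bicarbonate and replicates 2, 3 and 4 on water. Over the same libraries Lamb1 ran from 41.01 to 55.4 RPKM, inside the wild-type range. The genotype difference of Lamb2 on water was -0.80 ± 0.41 and did not pass (SE, limma adjusted p = 0.186).

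Wild-type water replicates 1 and 2 formed another such pair. Col4a1 measured 10.5 and 7.38 RPKM there, against 13.7 to 23.2 RPKM in the other 14 libraries. Lox measured 1.05 and 0.984 RPKM, and elastin 0.639 and 0.417 RPKM, the lowest of all 16 libraries for both genes. Col3a1, at 11.8 and 13.6 RPKM, and Col15a1, at 5.15 and 4.84 RPKM, were at their highest in the same 2 libraries. Col4a2, whose chain assembles with that of Col4a1 and which starts beside it on chromosome 8, measured 14.98 and 16.1 RPKM, within the 13.4 to 20.5 RPKM of all libraries.

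**Figure D5:**
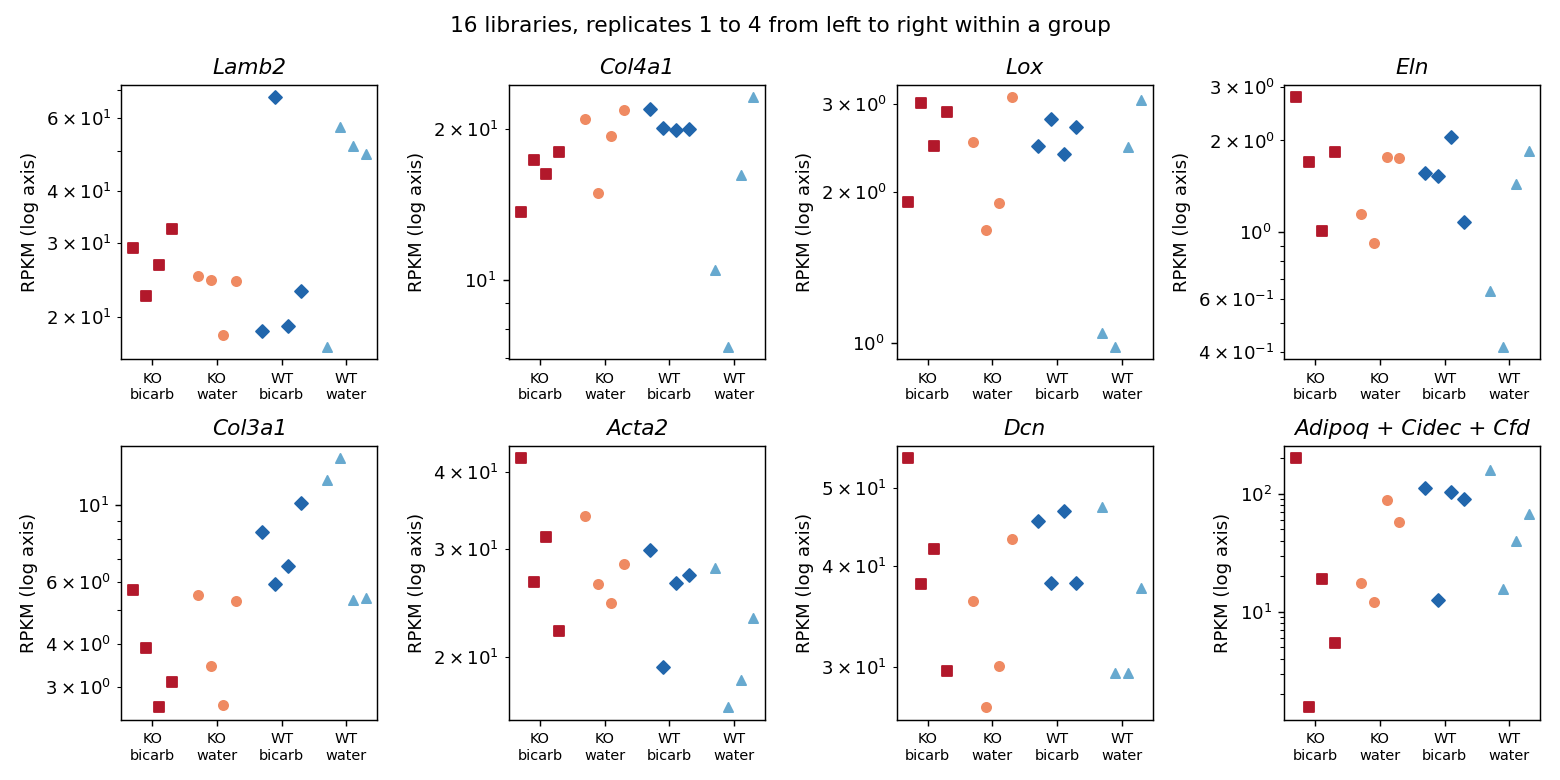
RPKM on log axes in each of the 16 libraries for 7 genes and for the summed adipocyte markers Adipoq, Cidec and Cfd, with replicates 1 to 4 from left to right within a group (red squares and orange circles, knockout; dark blue diamonds and light blue triangles, wild type). Lamb2 has 4 wild-type libraries at 49.3 RPKM or above, and wild-type water replicates 1 and 2 are lowest for Col4a1, Lox and Eln and highest for Col3a1.

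Chains that assemble into one protein, and the genes of smooth muscle, were compared across the 16 libraries as 8 pairs. Pearson's r and Spearman's rho of log2(RPKM + 0.1) were taken, with permutation tests of 100000 draws and Benjamini-Hochberg adjustment over the 8 pairs. The draws moved values across all 16 libraries without regard to group, so differences between groups enter r, rho and their p-values. Col1a1 and Col1a2, which form the collagen I triple helix, gave r = 0.86 and rho = 0.86 (permutation p = 2e-05 and 3e-05, adjusted p = 0.00016 and 0.00024), and r = 0.80 without the 2 libraries farthest from the median of Col1a1. Within the 8 knockout libraries r was 0.81, and within the 8 wild-type libraries 0.90. The ratio of Col1a2 to Col1a1, per length, was between 3.06 and 4.96 with a median of 4.06 in 16 of 16 libraries, although the protein holds more of the chain of Col1a1. Col4a1 and Col4a2 gave r = 0.55 and rho = 0.69 (permutation p = 0.0248 and 0.00403, adjusted p = 0.0349 and 0.0108), with r = 0.60 without the 2 farthest libraries. Col4a3 and Col4a4 gave r = 0.56 (permutation p = 0.0262, adjusted p = 0.0349) but rho = 0.22 (permutation p = 0.404, adjusted p = 0.404). Their r was 0.25 without the 2 farthest libraries, -0.17 in the knockout and 0.76 in wild type, so the relation rests on those libraries.

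Col6a1 and Col6a2 gave r = 0.67 and rho = 0.66 (permutation p = 0.00489 and 0.00708, adjusted p = 0.0130 and 0.0142), and r = 0.57 without the 2 farthest libraries. Col6a1 and Col6a3 gave r = 0.41 and rho = 0.36, which did not pass (permutation p = 0.118 and 0.171, adjusted p = 0.118 and 0.196). Of the smooth muscle genes, Acta2 and Myh11 gave r = 0.79 and rho = 0.71 (permutation p = 0.00029 and 0.00314, adjusted p = 0.00116 and 0.0108), with r = 0.99 in the knockout and 0.46 in wild type. Without the 2 libraries farthest from the median of Acta2 r was 0.66. Myh11 and Tagln gave r = 0.63 and rho = 0.55 (permutation p = 0.00947 and 0.0301, adjusted p = 0.0189 and 0.0402), and Acta2 and Tagln r = 0.50 and rho = 0.63 (permutation p = 0.0462 and 0.0104, adjusted p = 0.0528 and 0.0167). Without the 2 farthest libraries these were r = 0.53 and r = 0.35. Within the knockout and within wild type, r was 0.86 and 0.88 for Myh11 and Tagln, and 0.81 and 0.74 for Acta2 and Tagln. It was 0.82 and 0.84 for Col6a1 and Col6a2, 0.67 and 0.48 for Col6a1 and Col6a3, and 0.52 and 0.74 for Col4a1 and Col4a2. Each of these r mixes both drinks. With group means taken out, r was 0.86 for Col1a1 and Col1a2, 0.59 for Col4a1 and Col4a2, and 0.74 for Col4a3 and Col4a4. It was 0.67 for Col6a1 and Col6a2, and 0.52 for Col6a1 and Col6a3. For the muscle genes it was 0.69 for Acta2 and Myh11, 0.72 for Acta2 and Tagln, and 0.85 for Myh11 and Tagln. These values were not tested. Knockout bicarbonate replicate 1 was the highest library for all 3 muscle genes, at 42.1 RPKM for Acta2, 22.1 RPKM for Tagln and 13.6 RPKM for Myh11, and it also held the highest summed adipocyte markers. The part of vessel or fat in the slice was not tested.

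A wider list of 158 matrix and stroma genes that are not members, with further collagens, laminins, integrins, proteases, TGF-beta pathway genes and pericyte markers, had 143 rows, and 138 were tested. On water 4 were higher and 11 lower in the knockout (10.9% in all), against 21.9% of all genes tested. On bicarbonate 9 were higher and 3 lower (8.70%), against 18.4%. None passed for bicarbonate against water with limma in the knockout, in wild type, for the interaction or averaged over both genotypes. Unadjusted p-values under 0.05 numbered 10 in the knockout (7.25%, beside 7.99% of all genes), 16 in wild type (11.6%, beside 12%), 13 for the interaction (9.42%, beside 8.19%) and 17 for the average (12.3%, beside 11.3%). Crtap, a subunit of the collagen prolyl hydroxylation complex, had the smallest p on both drinks. It measured 39.4 to 50.1 RPKM in the knockout against 11.1 to 21.5 RPKM in wild type on bicarbonate, and 51.1 to 66.7 against 12.6 to 25.2 RPKM on water, so the genotypes were apart. Its log2 difference was 1.43 on bicarbonate (limma adjusted p = 0.000676) and 1.63 on water (adjusted p = 0.000175).

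On water, Ltbp3, which holds latent TGF-beta in the matrix, was listed at 0 in 4 of 4 knockout libraries, against 2.34, 0.796, 1.07 and 1.43 RPKM in wild type (adjusted p = 0.00164), and no fold is given. Itgb6, the epithelial integrin chain that activates latent TGF-beta, measured 14.5 to 54.4 RPKM in the knockout on water, against 68.7 to 87.6 RPKM in wild type (log2 difference -1.75, adjusted p = 0.00565). Mgp, an inhibitor of calcification, measured 74.5 to 134 against 43.98 to 81.1 RPKM (0.81, adjusted p = 0.0139), and Plat, tissue plasminogen activator, 31.1 to 39.6 against 53.02 to 61.96 RPKM (-0.64, adjusted p = 0.0166). On bicarbonate, Npnt, nephronectin of tubular basement membranes, measured 90.6 to 124 RPKM in the knockout, against 23.04 to 68.7 RPKM in wild type (1.10, adjusted p = 0.0122). Prelp, a leucine-rich proteoglycan, measured 9.73 to 13.8 against 5.19 to 7.21 RPKM (0.86, adjusted p = 0.00267). Tcf21, a transcription factor of podocytes and stroma, measured 9.70 to 11.3 against 5.64 to 7.75 RPKM (0.69, adjusted p = 0.00602), and Igfbp7 862 to 901 against 667 to 805 RPKM (0.28, adjusted p = 0.0114). Of these 9 genes, Mgp was the only one with overlapping groups in the comparison it is named for. Apart from Crtap, none of them passed on the other drink. There the genotypes did not overlap for Mgp, Npnt and Igfbp7, and overlapped for Ltbp3, Itgb6, Plat, Prelp and Tcf21.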

How the data were processed

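RNA of kidney slices from 16 mice was made into Illumina libraries, per the labels. The RPKM values are used as deposited by the authors, 1 table of 13430 genes by 16 libraries, and no other column of per-sample values was present. The submitters' processing notes name Salmon 1.5.2, edgeR 3.34.0, GRCm39 and mm10 but no role for any of them, and which build the RPKM rest on is therefore unknown here. Libraries were grouped by genotype and drink from their labels. Genes with at least 0.5 RPKM in at least 4 of 16 libraries were kept (12943 tested, 487 not). Group means of log2(RPKM + 0.1) were fitted over all 16 libraries with limma 3.58.1 in R 4.3.3, with trend and robust variance estimates and 12 residual degrees of freedom, and tested two-sided with Benjamini-Hochberg adjustment over all genes tested. The procedure was tested on simulated data with independent normal noise and few changed genes. Its outcome is not given here, and between genotypes these data held a far larger share of called genes. The genes, the wider matrix list and the marker lists were chosen with earlier results of these data known. At most the 10 genes of smallest p among those that passed in a comparison were given in full, or the 3 of smallest p where fewer than 3 passed, and up to 5 genes of the wider list. Gene coordinates are those of GENCODE on GRCm38, and promoter windows and their GRCm38.p6 coordinates are from RefSeq; neither was used to make the RPKM. Alternatives changed the scaling, the added constant, the filter, the variance model, the libraries fitted and the covariates. A depth that RPKM hides cannot be weighed per library. Strandedness is not stated, so reads of a gene and of an overlapping antisense gene cannot be told apart.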

Additional observations from a re-analysis of the deposited data

Results flagged for a closer look

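In a group of 4, a library is given here where its gap to the nearest other library, as a share of the group's range, exceeded Dixon's 95% critical value. Of 176 groups of 4 looked at (44 genes), 14 had such a library, and chance gives about 1 in 20. In the knockout on bicarbonate, these were Col1a1 in replicate 1 at 3.16 RPKM (the other three at 1.91 to 2.02 RPKM) and Col4a5 in replicate 1 at 9.39 RPKM (the other three at 11.8 to 11.9 RPKM). The same group held Tgfb1 in replicate 1 at 5.66 RPKM (the other three at 10.8 to 10.98 RPKM). In the knockout on water, these were Col1a2 in replicate 2 at 7.28 RPKM (the other three at 10.5 to 10.95 RPKM) and Col4a5 in replicate 2 at 12.5 RPKM (the other three at 10.9 to 11.1 RPKM). The same group held Lamb2 in replicate 3 at 18.1 RPKM (the other three at 24.3 to 25.00 RPKM) and Lamc1 in replicate 4 at 10.1 RPKM (the other three at 14.97 to 15.6 RPKM). In wild type on bicarbonate, these were Col4a1 in replicate 1 at 21.98 RPKM (the other three at 19.95 to 20.1 RPKM) and Col4a4 in replicate 3 at 25.4 RPKM (the other three at 32.5 to 33.8 RPKM). The same group held Col6a2 in replicate 4 at 2.51 RPKM (the other three at 1.72 to 1.76 RPKM) and Lamb2 in replicate 2 at 67.3 RPKM (the other three at 18.5 to 23.00 RPKM). The same group held Sparc in replicate 3 at 70.5 RPKM (the other three at 51.4 to 54.4 RPKM) and Timp2 in replicate 3 at 15.6 RPKM (the other three at 19.5 to 20.04 RPKM). In wild type on water, it was Mmp2 in replicate 3 at 0.790 RPKM (the other three at 1.16 to 1.22 RPKM). Of these, only Tgfb1 was a call in a comparison of the report, and its library apart lay toward the wild-type values.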

How the results depend on the processing

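Of the 502 values of named genes under the alternatives, 447 kept their direction and their side of the threshold, 55 kept the direction but lost the call, and none turned its sign. All 55 losses fell on calls between genotypes, each tried in 20 settings. Values for bicarbonate against water, the interaction and the average were not calls and had none to lose. The calls of Lamb1 on both drinks, of Lama5 on water and of Fbln5 on bicarbonate held in all alternatives. The count of genes called between genotypes on bicarbonate, 7, was 4 with neither trend nor robust variances and 3 without knockout water replicate 2 and wild-type bicarbonate replicate 3 together. It was 2 with the adipocyte marker sum as a covariate, and 2 to 6 with single libraries left out. On water the count, 4, was 3 to 5 with single libraries left out, and 6 with the adipocyte covariate. With that covariate 14.8% of all genes tested passed on bicarbonate and 22% on water. For the other settings the share of all genes called between genotypes is not given. These counts thus do not show whether a shift is particular to the members. The covariate and the joint removal of 2 libraries were chosen after seeing the data. Over all genes, Spearman's rho between GC content and a library's deviation from the gene means was -0.27 to -0.08 in wild type on water. In the knockout on water it was 0.003 to 0.20. On bicarbonate it was -0.06 to 0.05 in wild type and 0.007 to 0.20 in the knockout. Removing length and GC trends left 7 genes on bicarbonate, 2 higher and 5 lower, where 3 were higher and 4 lower. The cause of these shifts was not tested. The replicate block, in which the replicate number is a covariate, gave 5 genes on water and 6 on bicarbonate. It gave 0 for each of the other comparisons. Over all genes, deviations of same-numbered libraries from their group means gave r of -0.0975 to 0.105 over 24 pairs, 2 of them over 0.1. The labels do not say what a replicate number marks, so whether the numbers pair the mice is unknown. Over all genes the block gave 2 calls in wild type for bicarbonate against water, where 18 passed without it, and 29 for the average of both genotypes, where 57 did. Over every alternative these counts ran from 2 to 82 and from 17 to 95, and those of the interaction, 2 in the report, from 0 to 5. The spread between 4 mice per group limits what could be called, and read depth is unknown.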
